A study of Mus musculus with 10 samples.

Results

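The miR-200 family consists of 5 microRNAs made in epithelial cells: miR-200b, miR-200a and miR-429 from a locus on chromosome 4, and miR-200c and miR-141 from a locus on chromosome 6. The 3p arms of these hairpins, the strands that are loaded as the main products, were taken by name (mmu-miR-200b-3p, mmu-miR-200a-3p, mmu-miR-429-3p, mmu-miR-200c-3p and mmu-miR-141-3p) from a table of 1340 mature mouse miRNAs, and all 5 were present. The species prefix is dropped below. The libraries are small RNA from the RPE/choroid/sclera, a dissection that joins the pigment epithelium with the blood vessel layer and the fibrous coat of the eye. The mice were wild type, of strain C57BL/6J, and the tissue was taken at postnatal day 34. A goggle with a -20 dioptre lens had been worn over one eye of each animal for 10 days from postnatal day 24, and the contralateral eye had no lens. A lens of this kind is used to induce myopia. Sides are named for every eye but the one that wore the lens is not, so the groups are 5 left and 5 right eyes, which share the numbers 61, 64, 65, 66 and 68 in their titles. No library is called treated or control, and right against left is not a contrast of lens against no lens. Nothing in the labels says beyond the shared number that the libraries are separate animals. With the number as a block, the tests measure how the right minus left difference spreads between the numbers of these samples.

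A microRNA guides a silencing complex to messenger RNAs that pair with its seed, bases 2 to 8 counted from the 5′ end. The miR-200 family is known for repressing Zeb1 and Zeb2, transcription factors that drive epithelial cells toward a mesenchymal state, and these factors in turn repress both loci. The family is high in epithelia such as skin, cornea and lens, and low in fibroblasts, muscle and vessels. In the back of the eye the pigment epithelium is the epithelial layer.

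The mature sequences are shown because the family is split in one way by its loci and in another by its seeds. They were read from RefSeq (GRCm38.p6), where all 5 names matched. Each is written 5′ to 3′ with the seed in capitals.
miR-200b-3p: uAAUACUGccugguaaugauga
miR-429-3p: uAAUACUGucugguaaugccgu
miR-200c-3p: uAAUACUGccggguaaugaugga
miR-200a-3p: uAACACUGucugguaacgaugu
miR-141-3p: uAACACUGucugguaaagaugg

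The 5 sequences fall into 2 seed groups. miR-200b-3p, miR-429-3p and miR-200c-3p share AAUACUG, and miR-200a-3p and miR-141-3p share AACACUG, which differs from it by U4C (positions counted from the 5′ end of the mature miRNA, the base of miR-200b-3p first). Among the 1679 mature miRNAs of the RefSeq table no other entry holds either seed. The seed groups cut across the loci, since each locus encodes both. The closest sequences also lie at different loci. miR-200b-3p and miR-200c-3p have the same base at 20 of the 22 compared positions and differ by U11G and A22G, with 1 further base at the 3′ end of miR-200c-3p. miR-200a-3p and miR-141-3p likewise share 20 of 22 positions and differ by C17A and U22G. Within a locus each pair of members differs at 4 of 22 positions. The sources used here do not say how reads that fit 2 members were assigned, so the levels of such near copies carry that uncertainty.

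The first locus holds the hairpins of miR-429, miR-200a and miR-200b within 1846 bases of the minus strand of chromosome 4 (GRCm38). miR-200b-3p lies at 156055685 to 156055706, miR-200a-3p at 156054911 to 156054932 and miR-429-3p at 156053916 to 156053937. All 3 are within an intron of the protein-coding gene Ttll10 on the same strand in GENCODE M21. The noncoding transcript Gm13648 also spans them, and miR-429-3p falls in one of its exons while miR-200a-3p and miR-200b-3p lie in an intron. The second locus is shorter, with the hairpins of miR-141 and miR-200c in 477 bases of the minus strand of chromosome 6. miR-200c-3p lies at 124718324 to 124718346 and miR-141-3p at 124717917 to 124717938. Both are in an intron of the noncoding transcript Gm15884, between the genes Phb2 and Ptpn6, and miR-141-3p also lies in an exon of the transcript Gm29008.

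Values are given as the deposited normalised signal, which has no unit of reads. The sums of the 10 libraries lie between 11878152 and 11879036, and the form of the table leaves the depth of each library unknown, so no counting interval is given. Each of the 50 values of the family also occurs at some other place in the table. A value is in this sense a step that a miRNA reaches by its rank in the library. miR-204-5p, known from the pigment epithelium, ranked first in all 10 libraries. The labels name this tissue, although their extract protocol mentions retinae.

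The family was present in every library, with its members between places 108 and 518 of the 1340 miRNAs by rank. Its most abundant member was miR-200b-3p, which carries the seed AAUACUG and is the first hairpin of its transcript. In the left eyes of numbers 61, 64, 65, 66 and 68 it had a signal of 1335, 3191, 2316, 3359 and 1982, and in the right eyes of the same numbers 3037, 1452, 366, 560.2 and 1108. Left eyes reached 2437 ± 845 and right eyes 1305 ± 1060.2 (SD, n = 5 each). Right eyes 65 and 66 were the lowest of the 10, right eye 61 was the third highest, and the sides overlapped.

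Its neighbour miR-200a-3p, which carries the other seed, had 452, 1025, 841, 969 and 1159 in left eyes and 904, 521, 191, 266 and 761 in right eyes. The means were 889 ± 269.6 and 529 ± 307 (SD, n = 5 each). The same 2 right eyes were lowest, and left eye 68 was highest. The third product of the locus, miR-429-3p, had 277, 461, 479, 585 and 577 in left and 551, 337, 118, 135 and 341 in right eyes, or 476 ± 124 and 296 ± 178. Right eyes 65 and 66 stood apart at the bottom again, and left eye 61 was the next lowest, as it was for miR-200a-3p.

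The products of the chromosome 6 locus were scarcer. For miR-141-3p, of the miR-200a seed, the left eyes had 165, 305, 157, 266 and 219 and the right eyes 240.3, 186, 46.9, 42.7 and 135, with means of 222 ± 63.9 and 130.1 ± 86.4 (SD, n = 5 each). The lowest member was miR-200c-3p, of the miR-200b seed, at 23.1, 90.0, 79.5, 86.7 and 57.5 in left and 49.5, 45.02, 17.5, 20.8 and 24.4 in right eyes, or 67.4 ± 27.8 and 31.5 ± 14.7. Right eyes 65 and 66 held the 2 lowest values of both, and left eye 64 held the highest. In the plot of signal by number, each member has the same side higher in each number.

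**Figure D1:**
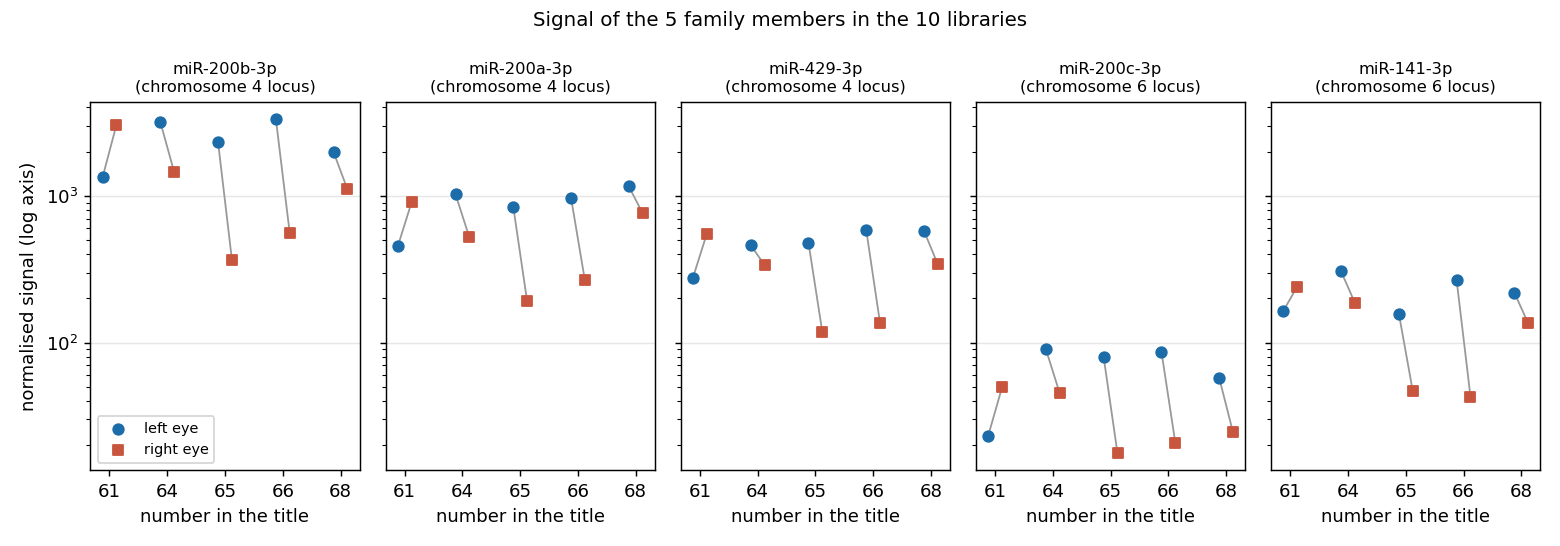
Normalised signal (log axis) of the 5 members in the left (circles) and right (squares) eye of each number, with a line joining the eyes of a number. Each point is 1 library. The right eye is the lower one in numbers 64, 65, 66 and 68 and the higher one in number 61 for all 5 members, and right eyes 65 and 66 are the lowest 2 libraries of each member.

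The order of the levels was the same in every library. miR-200b-3p was above miR-200a-3p, miR-200a-3p above miR-429-3p, miR-429-3p above miR-141-3p and miR-141-3p above miR-200c-3p in 10 of 10 libraries. Taken over all libraries the ranges of neighbours overlap, since miR-200b-3p ran from 366 to 3359 and miR-200a-3p from 191 to 1159. Within a library the gaps were clear, with mean log2 ratios on the log2(signal + 1) scale of 1.30 for miR-200b-3p to miR-200a-3p (SD 0.44, n = 10), 0.86 for miR-200a-3p to miR-429-3p (SD 0.20) and 1.18 for miR-429-3p to miR-141-3p (SD 0.35). The step from miR-141-3p down to miR-200c-3p was less even, and the log2 ratio of miR-200c-3p to miR-141-3p ran from -2.78 to -0.97. The mature products are 22 or 23 bases long, so signals were compared without a length correction. How evenly the library kit captured each sequence was not tested. In rank, miR-200b-3p stood between places 108 and 226 of the table, with a median of 136.5. miR-200c-3p stood between places 347 and 518.

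As a whole the family was a small part of the signal. The 5 members summed to 2252, 5073, 3873, 5265 and 3994 in left and 4782, 2541, 740.2, 1024 and 2369 in right eyes, 0.00623% to 0.0443% of the summed signal of a library. miR-200b-3p made up 56.7 ± 6.29% of the family sum (SD, n = 10), miR-200a-3p 23.3 ± 4.69%, miR-429-3p 12.8 ± 1.95%, miR-141-3p 5.64 ± 1.14% and miR-200c-3p 1.62 ± 0.476%. The family sum varied 7.11-fold between the highest and lowest library, while the median miRNA of the 588 analysed varied 2.10-fold. In a bulk tissue, fewer cells of a type and less of the RNA in each cell cannot be told apart.

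The 2 loci were compared by the summed signal of their products. The chromosome 4 locus held 92.7 ± 1.13% of the family signal, between 90.9% and 93.9% in the 10 libraries. Its sum ran from 676 to 4913, and that of the chromosome 6 locus from 63.5 to 395. The log2 ratio of the loci was 3.46, 3.57, 3.94, 3.80 and 3.75 in left and 3.95, 3.32, 3.39, 3.92 and 3.79 in right eyes. It was 3.70 ± 0.19 in left and 3.68 ± 0.30 in right eyes, a 12.9-fold excess of the chromosome 4 locus over the 10 libraries. The right eye had the lower ratio in 2 of 5 numbers, and the sides covered nearly the same range. When the family sum of right eye 65 was 5.23-fold below that of left eye 65, the ratio of its loci moved by -0.55 on the log2 scale. In number 66, with a 5.14-fold gap between the eyes, it moved by 0.12. The excess of the chromosome 4 locus thus stayed between 10.0-fold and 15.5-fold in all libraries. As a ratio of mean log2 values, which weights the members of a locus equally, it was 3.09.

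The ratio of the seed groups had an SD of 0.32 on the log2 scale over the 10 libraries, where that of the loci was 0.24, and the difference of these SDs was not tested. The group with AAUACUG (miR-200b-3p, miR-429-3p and miR-200c-3p) held 71.1 ± 4.69% of the family signal (SD, n = 10) and the group with AACACUG (miR-200a-3p and miR-141-3p) 28.9 ± 4.69%. The log2 ratio of AAUACUG to AACACUG was 1.41, 1.49, 1.53, 1.71 and 0.93 in left and 1.67, 1.38, 1.07, 1.22 and 0.72 in right eyes. Both eyes of number 68 had the lowest ratios, where miR-200a-3p was high for its library and made up 29.0% and 32.1% of the family. The ratio was 1.41 ± 0.29 in left and 1.21 ± 0.35 in right eyes, and lower in the right eye in 4 of 5 numbers. This excess rests on the weight of miR-200b-3p in the sum. With the mean of log2 values, in which the scarce miR-200c-3p counts as much as miR-200b-3p, the sign turned and the ratio was -0.12.

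Members of the family were compared in pairs to see whether sharing a locus or a seed went with a steadier ratio. The steadiest of the 10 pairs was miR-200a-3p with miR-429-3p, neighbours at the chromosome 4 locus with different seeds, whose log2 ratio had an SD of 0.20 over the 10 libraries. The loosest was miR-200c-3p with miR-141-3p, the 2 products of the chromosome 6 locus, with an SD of 0.59. The 4 pairs within a locus had a median SD of 0.41 (0.20 to 0.59) and the 6 pairs between loci 0.45 (0.35 to 0.52). The 4 pairs with the same seed had 0.45 (0.38 to 0.49) and the 6 with different seeds 0.40 (0.20 to 0.59). Neither grouping separated the pairs, and the pairs share members and libraries, so no test was made.

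**Figure D2:**
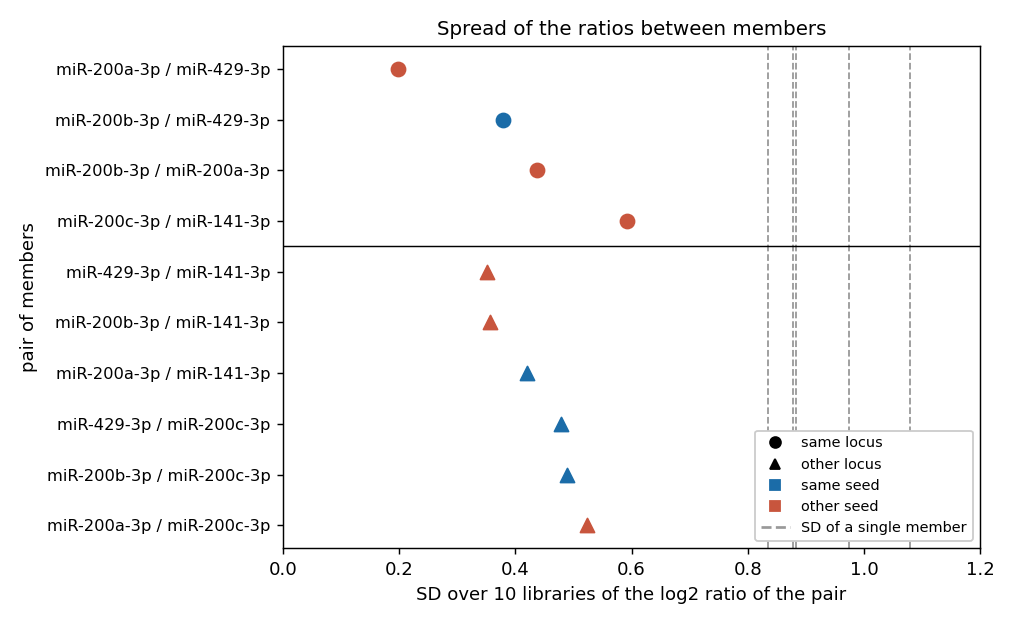
SD over the 10 libraries of the log2 ratio for each of the 10 pairs of members. Circles are pairs within a locus and triangles pairs between loci, blue marks the same seed and red different seeds, and dashed lines are the SDs of the single members. The pairs lie between 0.20 and 0.59 and the single members between 0.83 and 1.08, a gap that was not present without right eyes 65 and 66, and the pairs within a locus overlap with those between loci.

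Over all 10 libraries single members varied more than their ratios. On the log2(signal + 1) scale the SD over the 10 libraries was 1.08 for miR-200b-3p, 0.97 for miR-141-3p, 0.88 for both miR-200a-3p and miR-200c-3p, and 0.83 for miR-429-3p. The median over the 588 miRNAs was 0.34. In order of SD the members stood at places 18, 29, 39, 41 and 45 of 588. Pearson's r between members was 0.80 to 0.97 within a locus and 0.82 to 0.94 between loci, as a description over 10 libraries of which pairs share a number. Right eyes 65 and 66 carried part of this. Without them r was 0.67 to 0.90 within and 0.56 to 0.86 between loci over 8 libraries. The SDs of the single members without them were between 0.40 for miR-141-3p and 0.75 for miR-200c-3p, and those of the log2 ratios between 0.21 and 0.55. The 2 ranges then overlapped, and the log2 ratio of miR-200c-3p to miR-141-3p, with an SD of 0.55, varied more than miR-141-3p itself. The ratios of miR-200a-3p to miR-200c-3p (0.55) and to miR-141-3p (0.42), and of miR-429-3p to miR-200c-3p (0.50), also varied more than their steadier member. In the remaining pairs the ratio still varied less than both members. That ratios varied less than levels in every pair thus rested on right eyes 65 and 66. These were the lowest libraries of each member, so smaller SDs of the members without them follow from the choice.

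The 5p arms of the same hairpins are the passenger strands. Of 5 looked for, 4 had entries (miR-200a-5p, miR-200b-5p, miR-141-5p and miR-200c-5p), and miR-429-5p was not analysed here. miR-200a-5p had 8.38, 36.4, 16.6, 25.7 and 13.4 in left and 30.9, 6.10, 1.90, 0.733 and 3.94 in right eyes. For miR-141-5p the left eyes had 11.1, 19.0, 14.4, 27.1 and 11.99 and the right eyes 22.8, 10.7, 1.90, 3.63 and 5.95. The mean of miR-200b-5p was 18.7 over left eyes and 11.7 over right eyes. miR-200c-5p was listed at 0 in 8 of 10 libraries, and had 0.480 in left eye 64 and 1.30 in left eye 68. The low libraries of the 3p arms, right eyes 65 and 66, were also the lowest 2 for miR-200a-5p, miR-200b-5p and miR-141-5p.

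The 3p arm prevailed in all 3 of the hairpins with both arms measured, but not to the same extent. The mean log2 ratio of 5p to 3p was -6.95 (SD 0.66, n = 10) for the miR-200b hairpin, -5.91 (SD 0.89) for that of miR-200a and -3.73 (SD 0.40) for that of miR-141, or 124-fold, 60.02-fold and 13.3-fold more 3p than 5p on the log2(signal + 1) scale. miR-141 had the least uneven arms in every library, its range of -4.29 to -3.24 lying above the -7.27 to -4.78 of miR-200a and the -8.34 to -5.75 of miR-200b. The pseudocount enters these low values, and with 10 in place of 1 the ratios were -6.05, -4.86 and -2.91 in the same order. Over the 10 libraries, 5p and 3p signals of a hairpin had Pearson's r of 0.84 for miR-200a, 0.86 for miR-200b and 0.93 for miR-141.

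Right eyes were then compared with left eyes in limma across the 588 miRNAs with a mean signal of at least 10, with the shared number as a block. No member passed an adjusted p of 0.05, and none of the 588 did (0%), while 13 (2.21%) had an unadjusted p under 0.05, 3 of them (0.51%) lower in right eyes. All 5 members had a lower fitted value in right eyes, as had 45.7% of all miRNAs. Since pairs of members had Pearson's r of 0.80 to 0.97 over the 10 libraries, these 5 signs are not independent results. The log2 fold change was -1.21 for miR-200b-3p (95% interval -2.47 to 0.06), -1.05 for miR-200c-3p (-2.12 to 0.02), -1.04 for miR-141-3p (-2.02 to -0.06), -0.92 for its seed partner miR-200a-3p (-1.92 to 0.09) and, the smallest, -0.87 for miR-429-3p (-1.91 to 0.17). The unadjusted p was 0.0595, 0.0536, 0.0404, 0.0689 and 0.0887 in that order, and the adjusted p in limma was 0.967 for each. The intervals are wide, and 4 of the 5 hold 0.

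Against the rest of the table the fitted differences were large and the errors were large too. The median log2 fold change of the members was -1.04, and that of the 588 miRNAs was 0.02. Counted from the most negative, the members stood at places 4, 7, 8, 9 and 11 of 588. The half-width of their 95% intervals was 0.98 to 1.27, where the median of all miRNAs was 0.38. No member separated the sides without overlap, which 1 of the 588 miRNAs did (0.17%). The fitted values of the scarce 5p arms depended on the settings. They were -1.74 for miR-200a-5p (95% interval -3.56 to 0.07), -1.14 for miR-141-5p and -1.11 for miR-200b-5p, with an adjusted p of 0.967 in limma for each. With a pseudocount of 10 they were -0.80, -0.56 and -0.52. Without number 66 they were -1.19, -0.78 and -0.36, and without number 61 -2.62, -1.67 and -1.89.

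**Figure D3:**
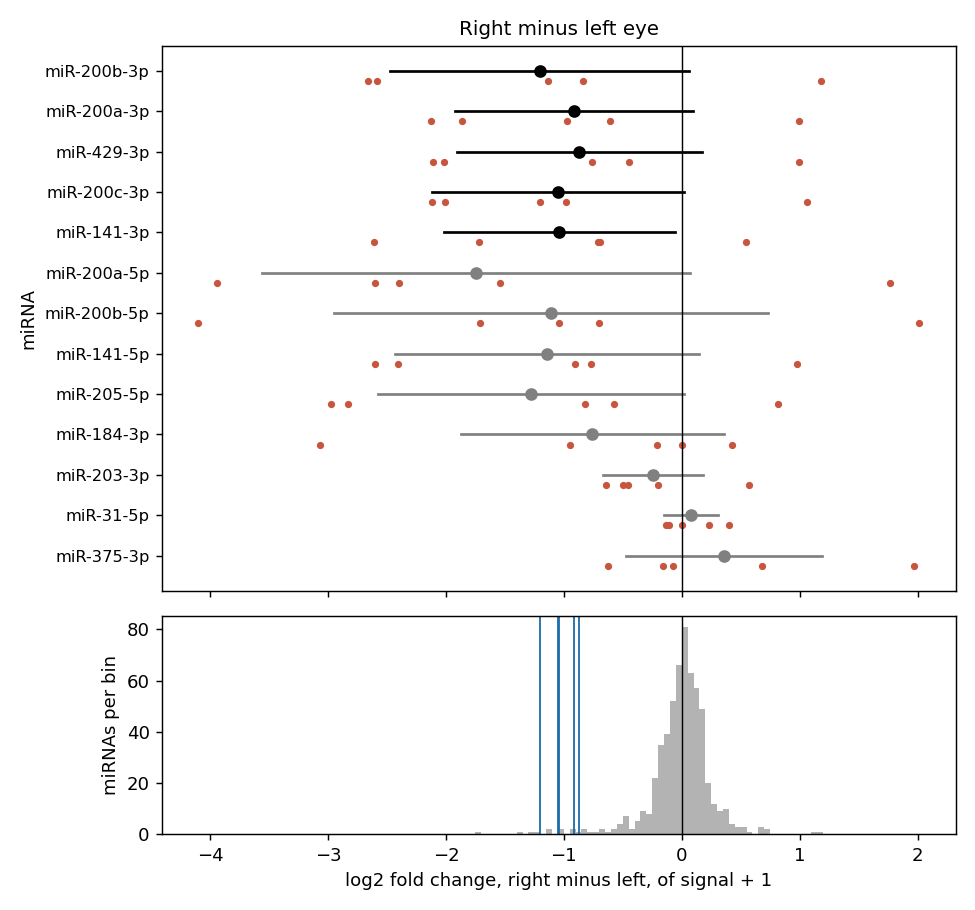
Upper panel: log2 fold change of right minus left eyes with 95% limma intervals (lines) for the 5 members (black) and for 5p arms and other epithelial miRNAs (grey), with the difference in each of the 5 numbers as small red points. Lower panel: the fold changes of all 588 miRNAs (bars) with the 5 members as vertical lines. The members lie between -1.21 and -0.87, below most miRNAs, and each has 1 number with the opposite sign.

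The numbers differed in size and sign, and did so alike for all members. In number 65 the member values of the right eye minus the left were -2.66 to -1.72 on the log2 scale, and in number 66 -2.61 to -1.86. The mean over members came to a 4.37-fold and a 4.70-fold lower signal in those right eyes. In number 64 the differences were -1.14 to -0.45, a mean of 1.80-fold lower, and in number 68 -1.20 to -0.61, a mean of 1.77-fold lower. Number 61 went the other way for every member, with 0.54 to 1.18, a mean of 1.94-fold higher in the right eye. All 5 members were thus lower in the right eye in 4 of 5 numbers, which 13.3% of the 588 miRNAs also were in at least 4, and none was lower in all 5, which 0.85% were. Without number 61 the members ran from -1.80 to -1.33 and all 5 had an unadjusted p under 0.05 in limma, none past the adjusted threshold, and without number 66 they ran from -0.86 to -0.56. Without number 65 they ran from -0.87 to -0.58.

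Other epithelial miRNAs were read to see which of them followed the family. miR-205-5p, which is known from layered epithelia and also represses Zeb1 and Zeb2, had 5733, 13992, 13581, 16083 and 8559 in left and 10090.0, 7912, 1729, 2256 and 5733 in right eyes. It was low in the libraries where the family was low. Of all 582 other miRNAs whose values varied, it was the one most like the mean of the 5 members over the 10 libraries, with Pearson's r of 0.98 and Spearman's rho of 0.96. Its other arm, miR-205-3p, came next (r = 0.97), and miR-203-3p, a miRNA of keratinocytes that restrains their renewal, had r = 0.92. Without right eyes 65 and 66, the 2 libraries farthest from the median of the family mean, r was 0.91 for miR-205-5p, 0.94 for miR-205-3p and 0.96 for miR-203-3p over 8 libraries. The amplitude differed, since miR-203-3p ran only from 998.7 to 1659 and miR-205-5p from 1729 to 16083.

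**Figure D4:**
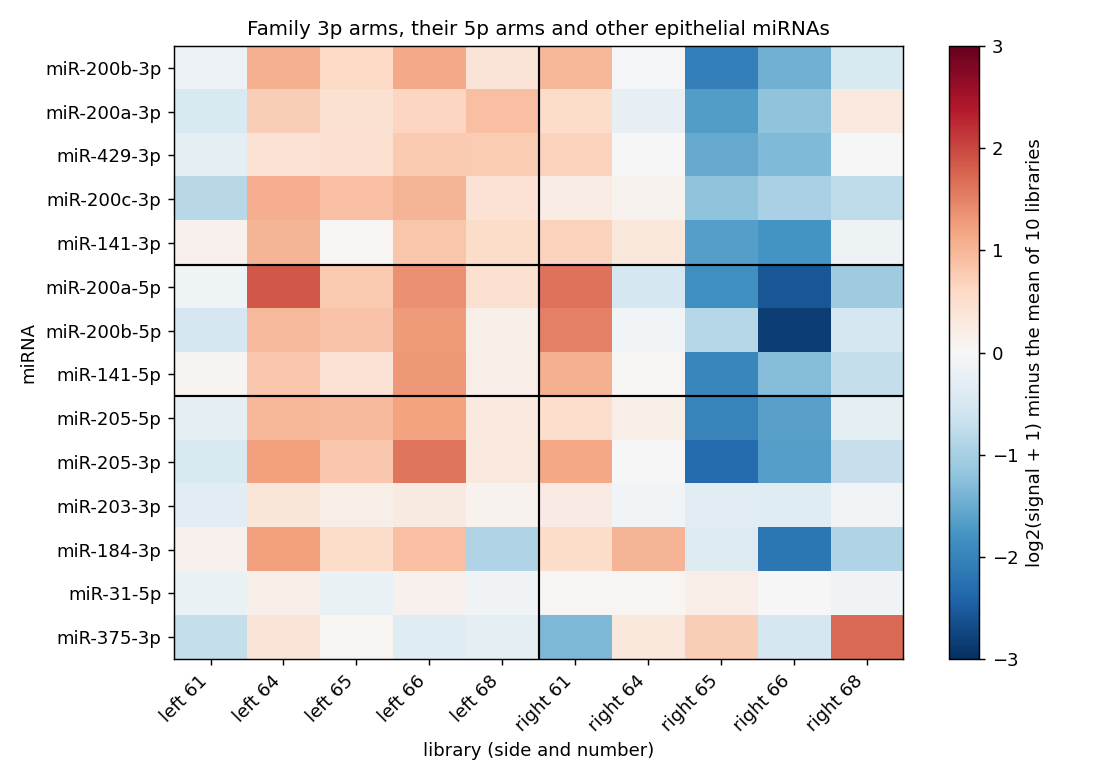
Difference of log2(signal + 1) from the mean of 10 libraries (colour) for the 3p arms of the family (top), their 5p arms (middle) and other epithelial miRNAs (bottom), with left eyes on the left and right eyes on the right. Right eyes 65 and 66 are blue through the family, its 5p arms and both arms of miR-205, and left eyes 64 and 66 are red there, a pattern that miR-31-5p and miR-375-3p do not show.

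The other 3 epithelial miRNAs had lower r to the family mean over the 10 libraries. miR-184-3p is known from the cornea and the lens. It had 104898, 225576, 140793, 179294 and 51789 in left and 140793, 194838, 73146, 21427 and 51789 in right eyes, with r = 0.66 to the family mean and 0.42 without the 2 lowest libraries. It was low in both eyes of number 68, where the left eye had a high family signal. miR-31-5p, of skin and other epithelia, held nearly level at 6302 to 8319, with r = -0.10 over the 10 libraries and 0.59 without right eyes 65 and 66, so its sign rested on those libraries. miR-375-3p, of endocrine and secretory epithelia, had its highest value of 1811 in right eye 68, with r = -0.23 and, without those libraries, -0.33. Of these 5 epithelial miRNAs outside the family, 0 passed in limma in either direction, 3 had a lower and 2 a higher fitted value in right eyes, and the median log2 fold change was -0.24. Their summed signal was 68965 to 250062 in left and 32278 to 212191 in right eyes, none of the 5 was at 0 in any library, and their part in the family's values was not tested.

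The other miRNAs most like the family included its own 5p arms, with r of 0.95 for miR-141-5p, 0.93 for miR-200a-5p and 0.86 for miR-200b-5p. Outside epithelial miRNAs the list went on with miR-10b-5p (r = 0.83), miR-5128 (0.82), miR-34b-5p (0.77) and miR-10a-5p (0.72). Without right eyes 65 and 66 these 4 had r of 0.60, 0.62, 0.27 and 0.46. Their Spearman's rho was 0.78, 0.92, 0.59 and 0.74 over the 10 libraries and 0.61, 0.83, 0.21 and 0.61 without those eyes. The likeness of miR-34b-5p thus rested most on those libraries, and miR-5128 kept most of its likeness in rank. At the other end stood miR-3068-3p (r = -0.82), miR-6989-3p (-0.82) and miR-181a-2-3p (-0.78), which had 0.40, -0.30 and -0.62 in that order over the 8 libraries. Only 8 of the 582 miRNAs had an r of at least 0.8.

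Summed markers of 7 other cell or tissue types had r between -0.57 and 0.09 with the mean of the family. The 5 retinal miRNAs miR-182-5p, miR-183-5p, miR-96-5p, miR-124-3p and miR-9-5p summed to 262589 to 473451 in left and 188960 to 1330350 in right eyes. None was at 0, and the highest sum was in right eye 68. The sum had r = 0.09 to the family mean (-0.52 over the 8 libraries). Its mean of 396683 is mostly miR-182-5p (340524). Singly, miR-9-5p had r = -0.48 and the rest of the 5 had 0.07 to 0.16. The pigment epithelium sum of miR-204-5p and miR-211-5p was 16.5% to 16.7% of the signal in every library, with r = -0.29. Most of it is miR-204-5p, which ranked first in all libraries and so took the same step in each. The steady share therefore cannot show how much pigment epithelium a library held. miR-211-5p alone had r = -0.29 as well. The sums of fibroblast and smooth muscle miRNAs had r = -0.43, endothelial -0.56, leukocyte -0.57, striated muscle 0.01 and erythroid 0.01. Such sums are weighted toward their abundant members. The erythroid sum (mean 42802) is mostly miR-486a-5p (41350), with r = 0.02. Its other members miR-451a and miR-144-3p had -0.41 and -0.39, or -0.08 and -0.24 over the 8 libraries. Among fibroblast and smooth muscle miRNAs, the abundant miR-143-3p had -0.43, miR-199a-3p -0.38 and miR-214-3p -0.28, but miR-145a-5p 0.15. Most of that sum (mean 904213) is miR-143-3p (793902). It took the same step of 740063 in both eyes of numbers 61 and 64, in left eye 65 and in right eye 68. This limits what the sum can show of cell content. Over the 8 libraries the sums of fibroblast and smooth muscle, endothelial and leukocyte miRNAs had r of 0.35, 0.14 and -0.14. Those of fibroblast and smooth muscle and of endothelial miRNAs thus turned sign without right eyes 65 and 66, and that of leukocyte miRNAs was nearer 0. None of the markers in these lists was at 0 in any library, and the part of these cells in the family's values was not tested.

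**Figure D5:**
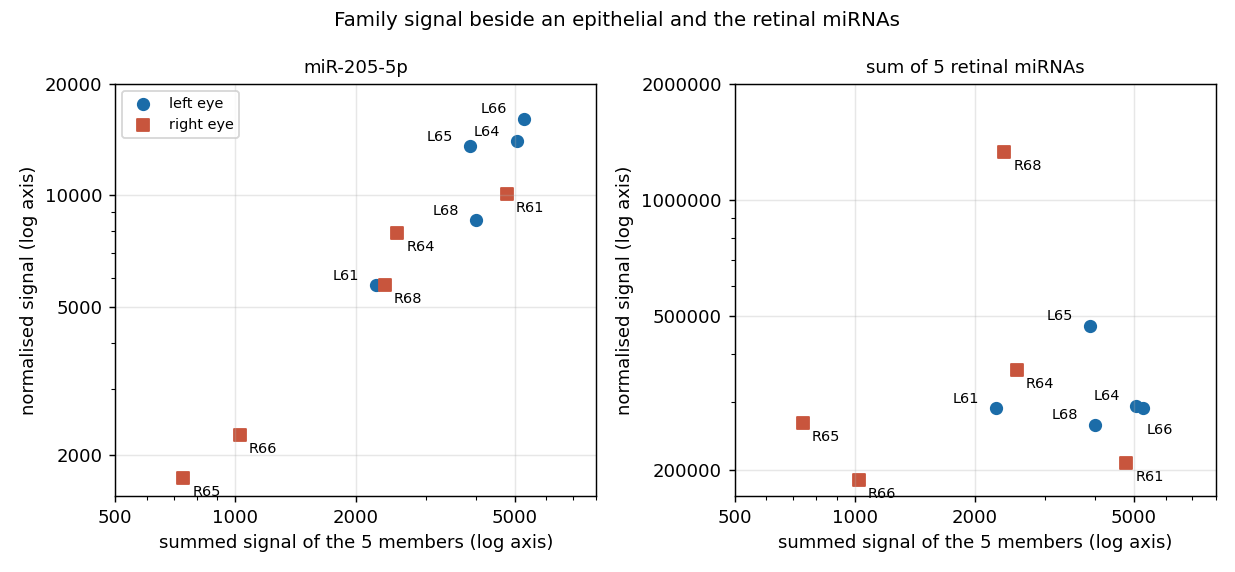
Summed signal of the 5 members (horizontal, log axis) against miR-205-5p (left panel) and against the sum of 5 retinal miRNAs (right panel, both vertical axes log), each point 1 library marked by side (L, R) and number. miR-205-5p is lowest in right eye 65 (1729) and highest in left eye 66 (16083), as the family sum is, while the retinal sum is highest in right eye 68 (1330350).

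Last, miRNAs that share the family's role were read from a list of 14 known to repress Zeb or Snai messenger RNAs. Of these, 13 had a mean signal of at least 10 and miR-1199-5p did not. None of the 13 passed in limma, 6 had a lower and 7 a higher fitted value in right eyes, and the median log2 fold change was 0.02, where that of all 588 miRNAs was 0.02 as well. The lowest were miR-205-5p at -1.28 and miR-34b-5p of the p53-induced miR-34 group at -0.85, the latter a scarce miRNA whose mean signal was 15.9 for left and 8.92 for right eyes. miR-34b-5p had -0.45 without number 66 and likewise -0.45 with a pseudocount of 10, and miR-205-5p had -0.85 without number 65. Next were miR-203-3p at -0.24 (-0.15 without number 66 and -0.45 without number 61), miR-215-5p at -0.16, miR-34a-5p at -0.12 and miR-139-5p at -0.05. The higher ones were miR-153-3p at 0.21, miR-192-5p at 0.17, miR-101a-3p at 0.14, miR-30a-5p at 0.14, miR-132-3p at 0.10, miR-34c-5p at 0.06 and miR-150-5p at 0.02. Of these 13, miR-139-5p, miR-153-3p, miR-30a-5p, miR-132-3p and miR-150-5p turned sign when 1 number was left out.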

How the data were processed

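Small RNA libraries (TruSeq small RNA kit, per the labels' protocols) were processed by the authors with Bowtie, Partek and the build GRCm38 (mm10), as the submitters' processing notes list them. The deposited table holds 1 normalised signal per mature miRNA and library, and the sources used here do not name the normalisation. Near equal sums and 7.31% whole values within 0.001 left no way to recover reads, so no count model was used. Start positions in the table equal those of RefSeq and stop positions are 1 base greater, and RefSeq ends are printed. Of the table's names, 1135 matched a RefSeq mature miRNA.

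Signal was analysed as log2(signal + 1), which understates changes of low miRNAs, in the 588 miRNAs with a mean of at least 10. The right minus left difference was fitted in limma 3.58.1 (R 4.3.3) with the title number as a block and a trend of variance on mean. Tests were two-sided and adjusted by Benjamini-Hochberg over all 588. The fit was run on simulated data with independent noise for each miRNA. How well it recovers changes of the size fitted for the members is not given here. The pairing comes from the title number and a protocol that compares contralateral eyes. Eyes of one number, each taken as its deviation from the mean of its side, correlated across miRNAs at 0.12, 0.45, 0.01, -0.13 and 0.28 in numbers 61 to 68, so these values do not establish it. Sums, ratios and correlations over members are descriptions without tests. The other settings were no block, a pseudocount of 10, no filter or a filter at 100, equal library medians, no trend, and each number left out. Named miRNAs are the members, their 5p arms, 2 lists, and the 10 most and 3 least like the family mean. Members and lists were chosen with earlier results of these data known.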

Additional observations from a re-analysis of the deposited data

Results flagged for a closer look

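In 3 of 74 checks, 1 eye stood apart from the 4 eyes of the same side, with a gap of over 0.71 of the range on the log2 scale, where chance gives about 1 in 20 for independent values. None was a value of a family member, of a locus or seed sum, or of an arm ratio. Left eye 68 was apart in miR-101a-3p (57345), right eye 68 in miR-139-5p (473) and left eye 65 in the sum of the 5 retinal miRNAs (473451).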

How the results depend on the processing

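No miRNA was called under any of the 11 other settings in limma. An unadjusted p under 0.05 was found for 6 to 26 of 588 miRNAs in the settings that kept the filter. It was found for 6 of 339 with the filter at 100 and for 49 of 1340 without a filter. All 5 members kept a negative log2 fold change in each setting run, from -1.80 to -0.56, with adjusted p of 0.336 to 1. Without the replicate block the fold changes of the members are the same (miR-200b-3p -1.21), 3 of 5 had an unadjusted p under 0.05 and none was called. That count depended on the setting. It was 1 in the main fit and with equal library medians, 2 with a pseudocount of 10, and 5 without a filter or without number 61. With the filter at 100, without the trend, or without any other number it was 0. A filter at a mean signal of 100 left out miR-200c-3p. With the mean of log2 values in place of sums, the log2 ratio of the loci was 3.09 and that of the seed groups turned to -0.12, since members then count equally. Outside the family, signs with a number left out were read only for analysed 5p arms and the listed epithelial and Zeb or Snai miRNAs. Of these, 7 turned sign, and the share among all miRNAs analysed was not counted. Over the 5 such fits the log2 fold change ran from -0.00257 (without 65) to 0.13 for miR-31-5p. For miR-30a-5p it ran from -0.000357 (without 65) to 0.26, and for miR-150-5p from -0.0891 (without 66) to 0.11. For miR-139-5p it ran from -0.12 to 0.0628 (without 68). The range was -0.0435 to 0.60 for miR-375-3p, -0.0833 to 0.34 for miR-153-3p and -0.0330 to 0.17 for miR-132-3p, each lowest without 68. The cause of these turns in sign was not tested. The 10 miRNAs most like the family shared 8 to 10 names with those of the other settings. Depth is unknown, so the counting error of low values such as the 5p arms could not be given.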
